A study of Mus musculus with 3 samples.

Results

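The clustered histone genes are the genes that encode the core histones H2A, H2B, H3 and H4 and the linker histone H1 in the Hist1, Hist2, Hist3 and Hist4 loci of the mouse. They were chosen by symbol alone: every gene whose symbol starts with Hist1h, Hist2h, Hist3h or Hist4h and that has at least 1 protein coding transcript in the annotation. That rule gave 67 genes of 55536 annotated genes, with 6 genes of class H1, 18 of H2A, 18 of H2B, 12 of H3 and 13 of H4. The Hist1 locus on chromosome 13 holds 54 of them, Hist2 on chromosome 3 holds 10, Hist3 on chromosome 11 holds 2 and Hist4 on chromosome 6 holds 1. Expression was measured by sequencing ribosome-depleted RNA from the chromatin fraction of bone marrow derived macrophages (BMDM) of strain C57BL/6J. All cells had received 100 ng/ml of Lipid A, the TLR4-binding portion of lipopolysaccharide, for 10 min. The series holds 1 group with biological replicates 1, 2 and 3, prepared from 1 µg, 250 ng and 500 ng of RNA respectively, so the starting amount and the replicate cannot be told apart. The labels give the same donor entry for all 3 libraries and no age, and the spread between them may be technical. No library of unstimulated cells was used here, so no value can be read as a response to Lipid A.

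Histones package DNA into nucleosomes. Most clustered histone genes are transcribed during S phase, when newly replicated DNA has to be packaged. Their short, intronless mRNAs end in a conserved stem-loop in place of a poly(A) tail, which is bound by the stem-loop binding protein SLBP and cut with the help of the U7 snRNP. Replacement histones such as H3.3 are encoded elsewhere in the genome by genes with introns and polyadenylated mRNAs, and are made throughout the cell cycle. BMDM grow in culture under colony-stimulating factor, and a share of the cells is usually in cycle.

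The stem-loop was searched in the annotated transcripts, since it defines how these mRNAs end. The search took a stem of 6 base pairs opening with GG and closing with CC, with at most 1 pair not Watson-Crick. Its loop had 4 bases, of which the first 3 are T. A match within 150 bases after the stop codon was found in 44 of the 67 members and in 15 of 21632 other protein coding genes (0.0693%). All 6 pairs were Watson-Crick pairs in all 44 members. The 44 genes carried 6 distinct stem-loops, and each is given here in the gene with the highest TPM, from the GENCODE M21 transcripts in mm10 coordinates of the 16 bases, 5′ to 3′, with the stem-loop in capitals and up to 5 flanking transcript bases in lower case.
Hist2h2aa2 (chr3:96239784-96239799, minus strand; the same 16 bases in 26 genes): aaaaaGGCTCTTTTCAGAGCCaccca
Hist1h4m (chr13:21812129-21812144, plus strand; 7 genes): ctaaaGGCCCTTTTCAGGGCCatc
Hist1h3e (chr13:23561903-23561918, minus strand; 6 genes): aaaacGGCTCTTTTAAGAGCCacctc
Hist1h4b (chr13:23757366-23757381, plus strand; 2 genes): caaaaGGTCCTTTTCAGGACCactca
Hist1h4i (chr13:22040966-22040981, minus strand; 2 genes): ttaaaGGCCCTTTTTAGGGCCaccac
Hist2h2ac (chr3:96220418-96220433, minus strand; 1 gene): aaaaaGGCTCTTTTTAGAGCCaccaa

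The stem followed the histone class. All 33 stem-loops in H1, H2A, H2B and H3 genes opened with GGCTCT, whereas the 11 in H4 genes opened with GGCCCT in 9 and GGTCCT in 2. The loop was TTTC in 35 genes, TTTA in 6 and TTTT in 3, and the TTTA loops lay in 1 H1, 2 H2B and 3 H3 genes. The first base of the stem-loop lay 22 to 59 bases after the stop codon, with a median of 32. The 23 members without a match include 15 whose every annotated transcript stops at the stop codon, so that their sequence after it was not searched here. Hist1h1a and Hist2h3b were annotated with only 48 and 37 bases after it, so a stem-loop further on would be missed.

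The libraries held 15698066, 16005795 and 14386725 estimated counts in annotated genes for replicates 1, 2 and 3. Protein coding genes took 31.6%, 25.3% and 22.2% of all TPM (a level scaled to transcript length and to the sum of all transcripts in the library) in these libraries, so TPM of every protein coding gene is set partly by the RNAs of other kinds. All 10 macrophage markers passed a TPM of 1 in every library, with Ctsd, Lyz2 and Csf1r highest. Of the 21 markers of neutrophils, T cells, B cells, erythroid cells and fibroblasts, 0 were detected in the gene table. In the second transcript table, which the authors quantified directly from the reads, the T cell gene Cd3d had a mean of 11.4 TPM ± 6.96 (SD, n = 3), the neutrophil gene Mpo 1.26 ± 0.412 and Col1a1 1.16 ± 0.517, and the other markers had means of at most 0.902. Which table is nearer for these genes was not tested. In the gene table the collagen gene Col1a1 had 0, 19 and 30 counts in replicates 1 to 3, a level of at most 0.31 TPM, and all 5 fibroblast markers together had 0, 0.80 and 0.72 TPM.

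Clustered histone RNA was present on chromatin from most of these genes and at very unequal levels. The 67 members summed to 618, 588 and 248 TPM in replicates 1, 2 and 3 (mean 484 ± 206, SD, n = 3). This sum came from 5928, 6098 and 3010 estimated counts, or 0.0378%, 0.0381% and 0.0209% of each library. Scaled to protein coding genes alone, the members took 1952, 2322 and 1118 TPM, so replicate 3 was lowest on both scales, while replicates 1 and 2 changed order. Of the 67 members, 44 reached a TPM of 1 in all 3 libraries, beside 45.9% of all 22028 protein coding genes. The median member had a mean TPM of 3.80, against 0.75 for protein coding genes. A mean TPM of 10 or more was reached by 13 members, and the 10 highest held 54.1% ± 5.70 (SD, n = 3) of the summed TPM.

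**Figure D1:**
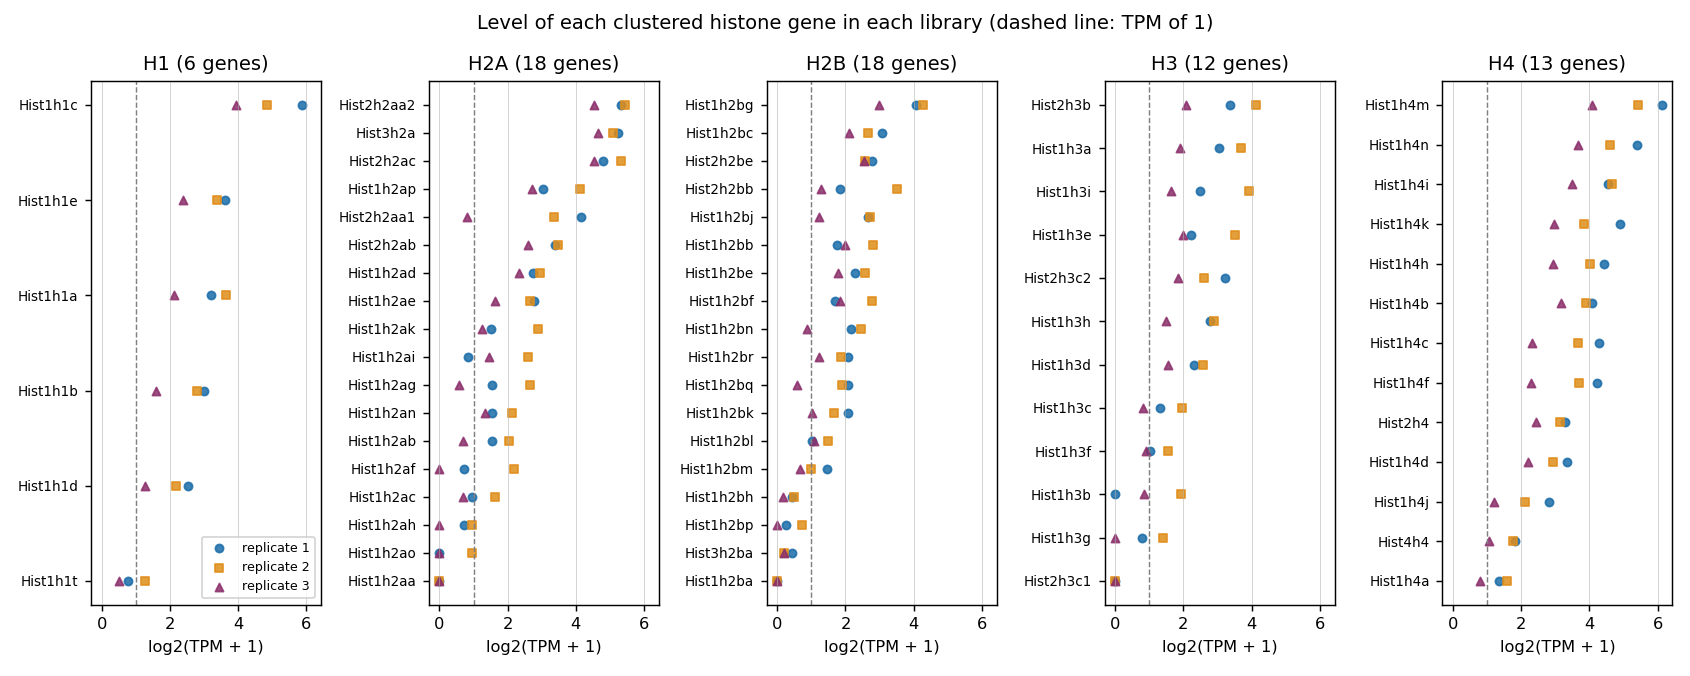
Level of each of the 67 clustered histone genes, one panel per histone class, as log2(TPM + 1), with 1 point for each of the 3 libraries and a dashed line at a TPM of 1. Triangles of replicate 3 lie left of the other points for most genes, while Hist2h2be in the H2B panel has its 3 points nearly together, and 3 genes (Hist1h2aa, Hist1h2ba and Hist2h3c1) are listed at 0 throughout.

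The other 23 members fell short of the TPM of 1 in at least 1 library. In 8 of them replicate 3 alone was below 1, and 14 reached 1 in replicate 2. The genes just inside the threshold were Hist1h2bk (3.2, 2.20 and 1.01 TPM), Hist1h2bl (1.04, 1.78 and 1.13) and Hist4h4 (2.52, 2.37 and 1.10). Just outside it were Hist1h3f (1.04, 1.94 and 0.86), Hist1h2bn (3.50, 4.52 and 0.82) and Hist1h2ai (0.80, 5.09 and 1.76). Hist1h2aa and Hist1h2ba, the H2A and H2B genes known for expression in testis, had a count of 0 in all 3 libraries, which allows up to 3 counts, or 0.191, 0.187 and 0.209 CPM. Hist2h3c1 was also listed at 0. No 31-base stretch of its transcripts is its own, and its count carried a read-assignment SD of 4.30, 5.80 and 5.21 counts, so its reads cannot be told apart from those of genes that share its sequence. Hist1h1t, the H1 gene known from male germ cells, was not at 0: it had 7, 17 and 5 counts (0.70, 1.41 and 0.42 TPM), and all of its 31-base stretches are unique.

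Genes for H4 held the largest share of the summed TPM in the mean, 34.7% ± 6.59 (SD, n = 3), followed by H2A with 31.9% ± 5.95, an order that differed by less than the spread between libraries. H2B held 12.0% ± 1.65, H1 11.7% ± 2.49 and H3 9.67% ± 3.29. In the second transcript table H2A came first with 35.2% ± 5.93 and H4 second with 31.2% ± 6.31. Estimated counts, which are not scaled to length, gave another order. H4 had 1314, 1159 and 523 counts, fewer in each library than H2A (1586, 1981 and 1154) and H1 (2009, 1571 and 677). Core histones are assembled in equal numbers, and the summed TPM of their clustered genes on chromatin were not equal. H4 genes summed to 261, 178 and 78.2 TPM in replicates 1 to 3, and clustered H3 genes to 46.4, 79.1 and 19.9. Genes outside the clusters are not in these sums. Those of H3.3 alone had 370.5, 284 and 129 TPM, so the clustered H3 sum does not stand for all H3.

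**Figure D2:**
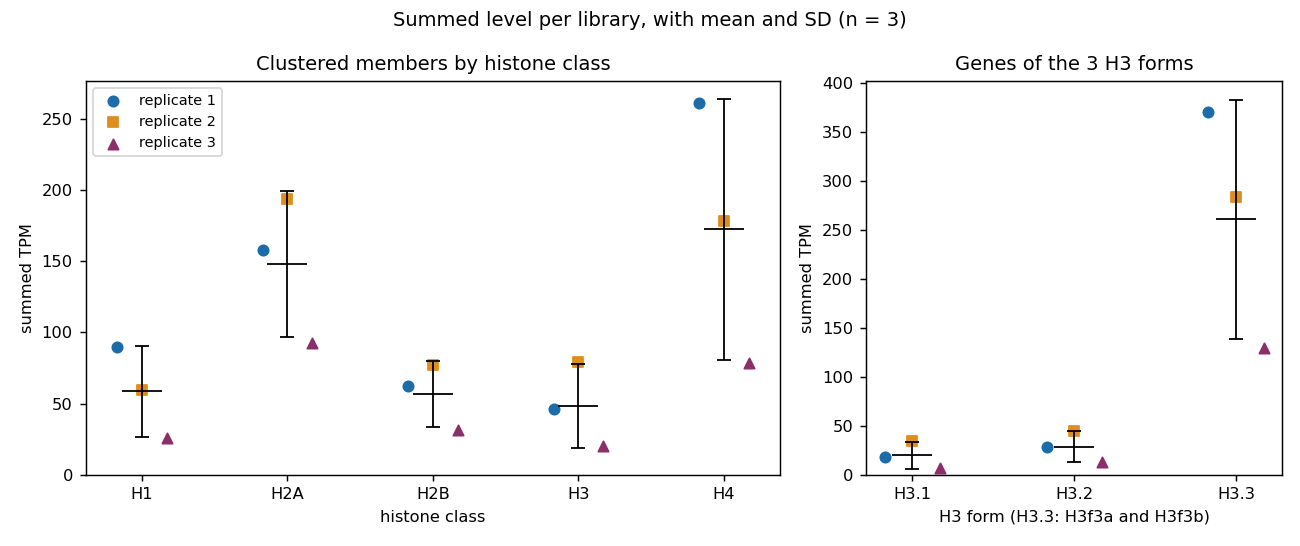
Summed TPM of the clustered genes of each histone class (left) and of the genes of each H3 form (right) in each library, with bars for the mean and SD of the 3 libraries. H1 and H4 were highest in replicate 1, H2A, H2B and H3 in replicate 2, and every class was lowest in replicate 3.

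Linker histones were led by a single gene. Hist1h1c, which encodes an H1 subtype of most somatic tissues, had 58.0, 27.9 and 14.2 TPM in replicates 1 to 3 (mean 33.4 ± 22.4, SD, n = 3), from 1114, 658 and 326 counts. Replicate 1 was high and replicate 3 low in this gene. Hist1h1e, another somatic subtype, had 11.3, 9.49 and 4.21 TPM, and Hist1h1a, a subtype typical of dividing cells, had 8.16, 11.6 and 3.39. Hist1h1b, a further replication-dependent subtype, had 7.08, 5.98 and 2.03 TPM. Hist1h1d had 495, 451 and 175 counts, more than Hist1h1e, but a TPM of 4.83, 3.51 and 1.42, because its annotated transcript is 7425 bases long.

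H2A TPM was concentrated in genes outside the large Hist1 locus. Hist2h2aa2 had 38.8, 42.7 and 22.1 TPM, Hist3h2a had 36.5, 33.1 and 24.1 and Hist2h2ac had 26.7, 39.2 and 22.3. Together with Hist1h2ap, the highest of the Hist1 genes (7.20, 16.5 and 5.53 TPM), they held 72.5% ± 6.75 (SD, n = 3) of H2A TPM. Hist2h2aa2 and Hist2h2aa1 share every 31-base stretch of their transcripts with another gene, so their separate values are not well defined. Their sum was 55.6, 52.0 and 22.9 TPM. It also depended on the quantification, being 37.4, 29.9 and 17.9 TPM in the second transcript table. Hist3h2a was the steadiest of the abundant members, with 1006, 1128 and 794 counts. Its annotated transcript overlaps Trim17 on the same strand and Gm44313 on the other, and no source used here says whether counting used strand. Translation of the annotated coding sequences of the 18 H2A genes gave 9 distinct proteins, and 9 Hist1 genes encode the same H2A. Those 9 genes summed to 26.2, 48.4 and 16.7 TPM, so replicate 2 was high and replicate 3 low.

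H2B was spread over more genes, and its 4 highest held 51.1% ± 1.16 (SD, n = 3) of the class. Hist1h2bg led with 15.7, 18.1 and 6.94 TPM. Hist1h2bc had 7.46, 5.35 and 3.34 TPM. Hist2h2bb had 2.58, 10.3 and 1.42 TPM, with replicate 2 far above the others, on 6.52, 27.7 and 3.94 estimated counts. Hist2h2be stood apart in its steadiness: 199, 210 and 199 counts, and 5.81, 4.93 and 4.84 TPM. It was the only H2B gene of the top 4 whose scaled count was highest in replicate 3. Its transcript runs 2192 bases past the stop codon, and no stem-loop was found in the 150 bases searched. The 18 H2B genes encode 12 distinct proteins.

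H3 genes differ in the H3 form they encode. Counted from 1 after the initiator methionine, the protein of Hist1h3a, Hist1h3g, Hist1h3h and Hist1h3i is H3.1, and 7 other genes encode H3.2, which differs from it by C96S. Hist2h3c1 is annotated with a longer protein of 180 residues and is in neither group. H3.3, encoded outside the clusters by H3f3a and H3f3b, differs from H3.1 by A31S, S87A, V89I, M90G and C96S. The H3.1 genes summed to 18.5, 34.5 and 6.67 TPM and the H3.2 genes to 27.95, 44.6 and 13.2. H3.3 genes summed to 370.5, 284 and 129 TPM, of which H3f3b alone made up 351, 266 and 120. The clustered genes thus held 11.1%, 21.8% and 13.3% of H3 TPM (mean 15.4% ± 5.61, SD, n = 3), highest in replicate 2. Among the members, Hist2h3b had 9.34, 16.4 and 3.21 TPM, Hist1h3a 7.22, 12.0 and 2.74, Hist1h3i 4.63, 14.3 and 2.09 and Hist1h3e 3.72, 10.5 and 2.99. In these 4 genes replicate 2 was highest and replicate 3 lowest.

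The 13 H4 genes encode a single protein, and 12 of them were detected. Hist1h4m had 69.0, 42.1 and 16 TPM, the highest mean of all members (42.4 ± 26.5, SD, n = 3). Its near copy Hist1h4n had 40.8, 23.2 and 11.6 TPM, and Hist1h4i had 22.5, 24.3 and 10.2. Hist1h4k had 28.7, 13.4 and 6.82 TPM from only 46.6, 22.02 and 11.9 counts, since its annotated transcript is the coding sequence alone and its effective length, the part in which a fragment can start, is 103 bases. Over all classes 16 of the 67 members had an effective length under 200 bases, where a small error in fragment length moves TPM most. Hist1h4a was the H4 gene below the threshold, with 1.54, 2.01 and 0.72 TPM.

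The clustered genes were lower in replicate 3 than in both other libraries. For this comparison counts were scaled by TMM and library size to CPM (scaled CPM), genes with a mean of under 10 counts were left out, and 0.5 CPM was added before the log2 ratio. With 1 library on each side there is no test, the pairs share libraries, and the ratios are descriptions. Of the 67 members 46 passed, and replicate 3 was the lowest library in 39 of these 46, beside 28% of 11771 protein coding genes. The median log2 ratio of replicate 3 over replicate 1 was -0.68 for the members and -0.02 for protein coding genes, and that of replicate 3 over replicate 2 was -0.82 and 0.03. The summed scaled CPM of all 67 members was 381, 358 and 221, with 95% Poisson intervals, which cover counting error only, of 372 to 391, 349 to 367 and 214 to 229. Among the 20 passing members with at least 50% unique 31-base stretches, a split chosen after seeing the data, replicate 3 was lowest in 18.

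Members past 2-fold lay in 1 direction. In replicate 3 against replicate 1, 13 of 46 were 2-fold or more lower (protein coding genes: 1.4%) and 0 were 2-fold or more higher (0.391%). Against replicate 2, 13 were 2-fold or more lower (1.51%) and 0 higher (0.221%). The 13 genes against replicate 1 were 3 of H1, 1 of H2A, 1 of H2B, 1 of H3 and 7 of H4, and the 13 against replicate 2 were 3 of H1, 4 of H2A, 1 of H2B, 4 of H3 and 1 of H4. The low ends were Hist2h2aa1, with 5.85, 3.41 and 0.37 scaled CPM and a log2 ratio of -2.87 of replicate 3 over 1, and Hist1h2bq, with 3.86, 1.76 and 0.66 and a log2 ratio of -1.91. Both have a near-identical copy that can take their reads. Summed with its copy, the Hist2h2aa1 ratio became -0.93, and the Hist1h2bq ratio with Hist1h2br became -0.72. Hist1h4m followed with 12.5, 7.52 and 3.68 scaled CPM and a log2 ratio of -1.63, and with its copy Hist1h4n the ratio was -1.57. With Hist2h2be, Hist1h2br alone was higher in replicate 3 than in replicate 2, at 3.31 against 3.05 scaled CPM.

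**Figure D3:**
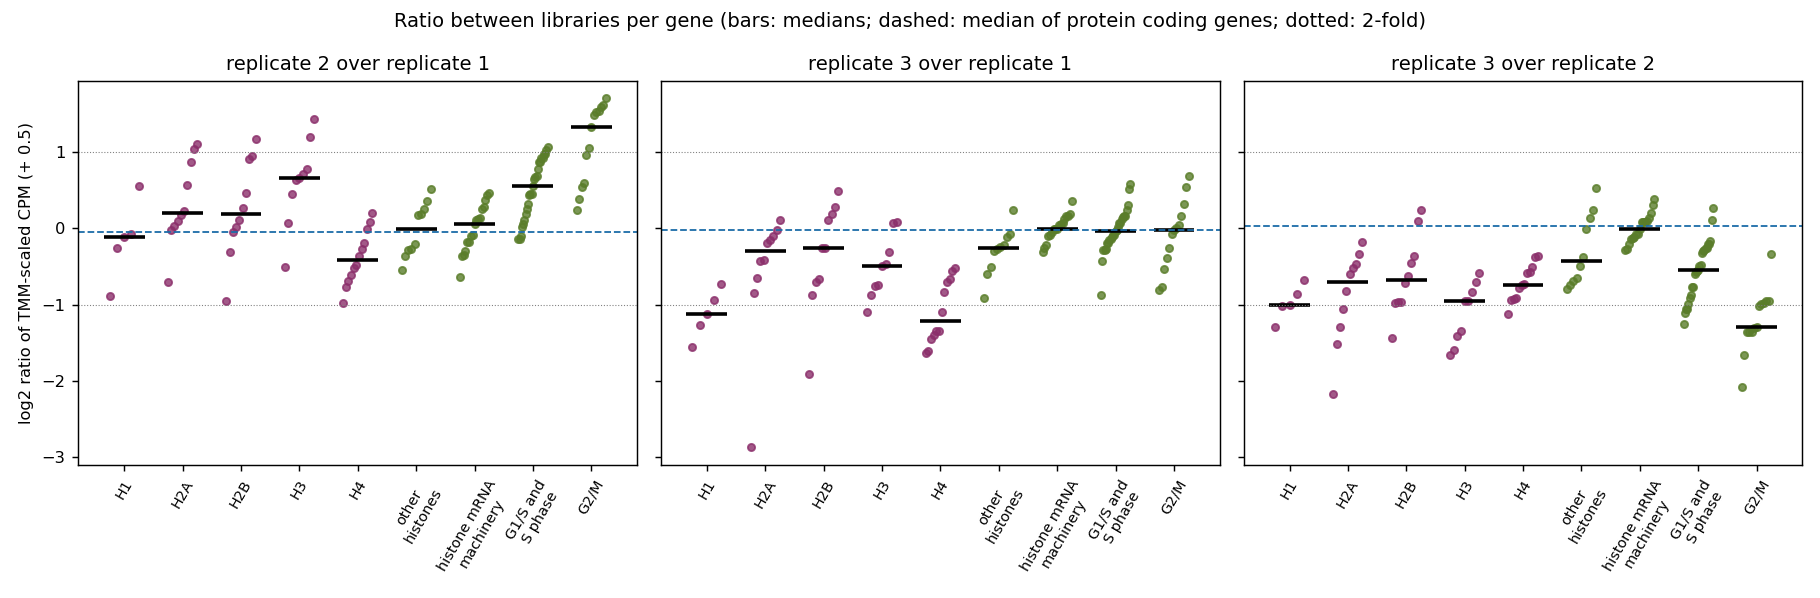
Log2 ratio of scaled CPM (+ 0.5) between each pair of libraries for each clustered histone gene by class (purple) and for genes of 4 other lists (green), with bars for medians, a dashed line for the median of protein coding genes and dotted lines at 2-fold. Of the 46 purple points 39 lie below 0 in replicate 3 over 1 and 44 in replicate 3 over 2, and the H3 and H4 medians lie on opposite sides of 0 in replicate 2 over 1.

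Between replicates 1 and 2 the median of all members was close to 0, and the classes lay on different sides of it. The median log2 ratio of replicate 2 over 1 was 0.08 in all 46 passing members, but -0.03 at a mean of 50 counts or more and -0.04 in the second transcript table, while protein coding genes had -0.05. Of 11771 protein coding genes 5228 were higher and 6542 lower in replicate 2 than in 1. Of the 9 passing H3 genes 8 were higher in replicate 2, the median being 0.66, and H4 genes were lower in 10 of 12, with a median of -0.42. These class medians kept their sign under both other scalings, both other filters, the smaller prior and the second table. H2A genes were higher in replicate 2 in 8 of 10, H2B genes in 7 of 10 and H1 genes in 1 of 5. In all, 5 members were 2-fold or more higher in replicate 2 than 1 (protein coding genes: 1.61%) and 0 were 2-fold or more lower (1.13%). In the second transcript table these counts were 0 higher and 4 lower. The largest ratios were 1.43 for Hist1h3e (2.12 and 6.58 scaled CPM), 1.19 for Hist1h3i (0.90 and 2.70) and 1.17 for Hist2h2bb (0.45 and 1.64).

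The spread between the 3 libraries beyond counting error was larger in the members than in most genes. The biological coefficient of variation, estimated by edgeR over all genes that passed, had a median of 0.299 in the 46 members and of 0.165 in 11771 protein coding genes. The sets were not matched on counts. A mean of 50 counts or more was reached by 23 of the members and 9674 of the protein coding genes. How far this adds to the difference was not tested. By class the median was 0.258 in H2A, 0.282 in H2B, 0.291 in H4, 0.293 in H1 and 0.334 in H3. The lowest values were 0.142 for Hist3h2a and 0.158 for Hist2h2be, and the highest was 0.563 for Hist2h2aa1. These values include any error of read assignment between genes that share sequence. For Hist2h2aa1 the read-assignment SD was 22.1, 23.1 and 8.77 on 90.5, 57.7 and 4.7 counts, and its near copy Hist2h2aa2 had a value of 0.188. Without replicate 3 the medians were 0.255 and 0.200.

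Histone genes outside the clusters had a smaller median ratio between libraries than the members. Of 11 such genes 10 were detected, and among the 10 that passed the count filter the median log2 ratio of replicate 3 over 1 was -0.26, with 0 past 2-fold. Most were also lower in replicate 3: 9 of 10 lay below replicate 1, 7 of 10 were lowest in replicate 3, and the median of replicate 3 over 2 was -0.43. The ratio of replicate 3 over 1 was -0.92 for H1f0, a linker histone gene, and -0.60 for H3f3b. H3f3b, an H3.3 gene, had the highest TPM (351, 266 and 120). Cenpa, listed for the centromeric H3 form, had 177, 122 and 92.9 TPM, and H2afy, which encodes macroH2A1, had 87.6, 63.9 and 61.8. H1fx was at the low end with counts of 1, 0 and 0. H2afx, the H2A variant phosphorylated at DNA breaks, was among the 15 non-member genes with a stem-loop, and it had 1.90, 2.64 and 1.16 TPM.

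Genes that make, process and degrade histone mRNA lay within 2-fold between libraries. Of 20 listed genes 18 were found in the annotation by symbol, 15 were detected, and among 17 passing genes the log2 ratio of replicate 3 over 1 ran from -0.31 to 0.36, with 8 genes higher, 9 lower and 0 past 2-fold in any pair. The ratio ran from -0.64 to 0.47 in replicate 2 over 1 and from -0.29 to 0.38 in replicate 3 over 2. Srrt, which links the cap-binding complex to RNA processing, had 175, 124 and 136 TPM. Cpsf3, the nuclease that cuts histone pre-mRNA, had 35.7, 26.4 and 25.7 TPM, and Sympk, a scaffold of the same cleavage complex, had 37.3, 26.1 and 22.7. Slbp, which binds the stem-loop, had 18.8, 17.6 and 14.8 TPM, and Npat, the coactivator of histone genes in S phase, had 4.69, 4.56 and 3.89. The U7 snRNA gene Rnu7 had a count of 0 in all 3 libraries. This gene (chr6:124741225-124741286) is shorter than the median gap between length and effective length, 206, 238 and 225 bases in replicates 1 to 3. A count of 0 therefore cannot show that U7 RNA was absent. Histone chaperones, with 11 of 12 detected, were higher in replicate 3 than 1 in 8 of 11 passing genes, with a median log2 ratio of 0.25. Atrx was the highest of them with 240, 228 and 228 TPM and Asf1b the lowest with 0.75, 0.85 and 0.31, while Npm1 had 24.1, 29.95 and 26.9.

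Most cell cycle genes were highest in replicate 2. Of 25 genes of the G1/S transition and S phase, 22 had more scaled CPM in replicate 2 than in 1. The median log2 ratio was 0.56. In replicate 3, 14 had less than in 1 (median -0.04) and 23 had less than in 2 (median -0.54). Replicate 3 was the lowest library in 14 of the 25 (protein coding genes: 28%). Tk1 and Pcna, which act in nucleotide supply and DNA replication, led with 27.96, 40.7 and 24.7 TPM and 26.2, 32.7 and 19.6 TPM. Cdk2, the kinase of cyclins E and A, had 18.3, 14.6 and 13.0 TPM. All 13 passing G2/M genes were higher in replicate 2 than in 1, 8 of them 2-fold or more. Their median log2 ratio of replicate 3 over 1 was -0.02. In replicate 3 over 2 all 13 were lower, 8 of them 2-fold or more, with a median of -1.30. Replicate 3 was the lowest library in 7 of the 13. Top2a had 8.43, 21.4 and 5.33 TPM, Mki67 6.13, 16.5 and 5.56 and Aurkb 5.46, 8.58 and 4.72. Whether the share of cycling cells differed between the cultures was not tested, and in bulk RNA fewer cells in S phase and less histone RNA per cell cannot be told apart. Of the 10 macrophage markers 8 were lower in replicate 3 than in 1 (median log2 ratio -0.49) and 5 lower than in 2 (median -0.10), and their part in the order of the members was not tested.

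Few other genes of the Hist1 span were detected. Within the span of chr13:21715763-23934851, 34 of 54 members (63.0%) were detected, against 2 of 49 other protein coding genes (4.08%), Zfp322a and Hfe. Over all protein coding genes the share was 45.9%, so the other genes of the span lay far below it. The Hist2 span of chr3:96219865-96270132 holds no other protein coding gene, and 8 of its 10 members were detected.

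Promoters of the members were read from RefSeq (build GRCm38.p6), in which 62 of 67 members matched, and the 150 bases upstream of the start were searched on both strands. The CCAAT box, bound by NF-Y, was present in 51 of 62 (82.3%), against 24.5% of all 32851 promoters in the table. It was found in all 6 H1, all 18 H2A and all 16 H2B promoters, in 8 of 10 of H3 and in 3 of 12 of H4. TATAA was found in 53.2% against 14.2%. The octamer ATTTGCAT, the motif of Oct-1 in H2B promoters, was found in 10 promoters (16.1%, against 0.998% of all), 5 of H2B and 5 of H2A. It lay on the strand of the gene in all 5 H2B promoters and on the other strand in all 5 H2A promoters. Windows of neighbouring H2A and H2B genes can overlap, so the same bases can count for both genes. The octamer of Hist1h2ae (window chr13:23571221-23571370, minus strand) is the same site as that of Hist1h2bg. A match is a description of letters and not a bound site. The 3 windows that follow show a promoter with an H2B octamer, a promoter with a reversed octamer and the promoter of the highest H4 gene, with all matches in capitals.
Hist1h2bg (chr13:23571250-23571399, plus strand): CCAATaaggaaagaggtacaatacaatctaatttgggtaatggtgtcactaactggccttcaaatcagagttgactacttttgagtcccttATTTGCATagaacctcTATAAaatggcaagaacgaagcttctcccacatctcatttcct
Hist3h2a (chr11:58954535-58954684, plus strand): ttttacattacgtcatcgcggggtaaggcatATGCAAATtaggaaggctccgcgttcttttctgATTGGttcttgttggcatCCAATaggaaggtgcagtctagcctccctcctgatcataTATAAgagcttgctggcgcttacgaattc
Hist1h4m (chr13:21811596-21811745, plus strand): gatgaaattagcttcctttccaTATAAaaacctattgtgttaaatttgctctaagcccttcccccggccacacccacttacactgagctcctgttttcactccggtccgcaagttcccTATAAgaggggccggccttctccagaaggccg

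An H2A and an H2B gene often share 1 such promoter region, starting in opposite directions. There were 12 such pairs with starts 176 to 306 bases apart, and the 2 genes of a pair often differed in mean TPM. The H2A gene had the higher mean TPM in 6 pairs and the H2B gene in 5, and both genes of Hist1h2aa and Hist1h2ba were at 0. The order was not firm in every pair. Hist1h2ad and Hist1h2bf had means of 5.49 and 3.57 TPM, but 4.88 and 5.40 in the second transcript table. Between libraries the order changed for Hist1h2ak (1.87, 6.44 and 1.36 TPM) and Hist1h2bn (3.50, 4.52 and 0.82). It also changed for Hist1h2ai (0.80, 5.09 and 1.76) and Hist1h2bl (1.04, 1.78 and 1.13). Hist2h2ac had 26.7, 39.2 and 22.3 TPM beside 5.81, 4.93 and 4.84 for Hist2h2be, whose start is 239 bases away, and the values did not overlap. Hist1h2bg had 15.7, 18.1 and 6.94 TPM beside 5.86, 5.30 and 2.12 for Hist1h2ae, 176 bases away, in which case the H2B gene was higher in each library. Hist1h2bc had 7.46, 5.35 and 3.34 TPM beside 0.95, 2.08 and 0.60 for Hist1h2ac. Across the 12 pairs the levels of both genes had a Spearman coefficient of 0.57 and a Pearson coefficient of 0.47 on log2(TPM + 1), which are given as a description, since all pairs share the same libraries and many share sequence. In the second transcript table the coefficients were 0.29 and 0.42.

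**Figure D4:**
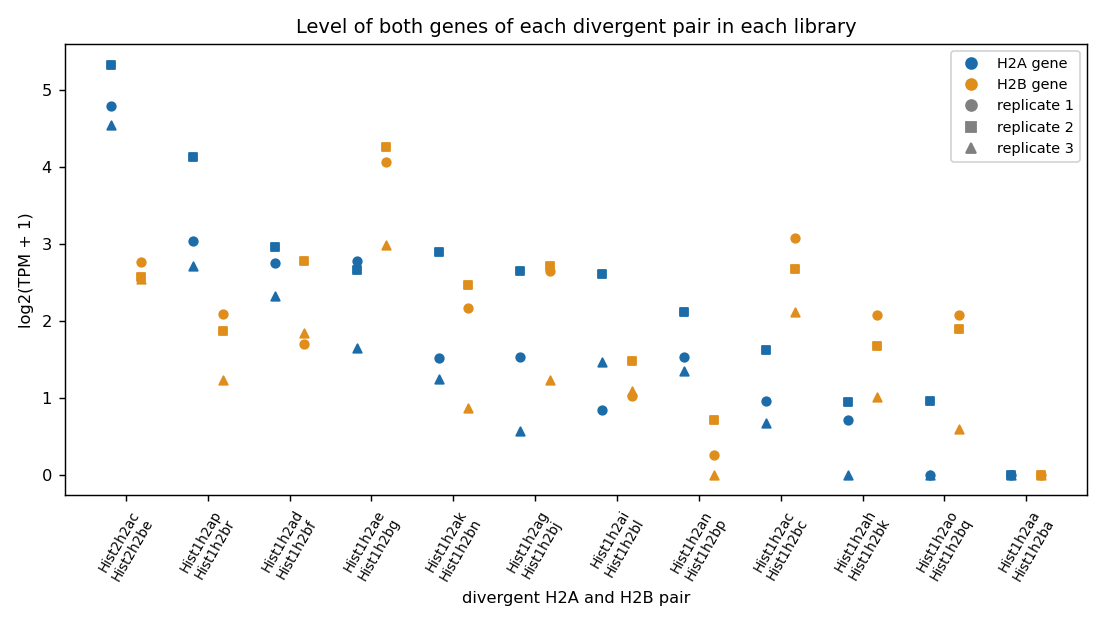
Level of the H2A gene (blue) and the H2B gene (orange) of each of the 12 divergent pairs, as log2(TPM + 1), with a circle, square or triangle for replicates 1, 2 and 3. The H2A points lie above the H2B points in the pair of Hist2h2ac and Hist2h2be, and below them in the pair of Hist1h2ae and Hist1h2bg.

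Annotated transcripts of these genes differ in whether they end at the stem-loop. Here a transcript ends at it when its last base lies at most 50 bases beyond the stem-loop. Such transcripts, 19 in number, held 38.9% ± 2.64 (SD, n = 3) of member TPM in the authors' first transcript table. The 27 transcripts that run further held 41.3% ± 3.39, and transcripts that stop at the stop codon held 12.3% ± 2.47. These shares rest on the annotation, because all but 4 of the 67 genes have transcripts of 1 kind only and the quantification could not choose between ends for them. The members with the highest TPM in transcripts that run past the stem-loop were Hist1h1c (840 bases beyond it), Hist3h2a (1643 bases), Hist2h2ac (57 bases), Hist1h4i (330 bases) and Hist1h2bg (155 bases). Hist2h2ac thus passed the limit by few bases, and with a limit of 100 bases the share of transcripts that end at the stem-loop was 46.2%. The median was below 0 for each kind of transcript model. Among passing members the median log2 ratio of replicate 3 over 1 was -0.70 in 14 genes whose transcripts end at the stem-loop, -0.70 in 19 whose transcripts run past it and -0.61 in 6 whose transcripts stop at the stop codon. It was -0.70 in 4 genes with sequence after the stop codon but no stem-loop found, 1 of which was higher in replicate 3. Of these 4, Hist1h1a and Hist2h3b were annotated with only 48 and 37 bases after the stop codon. The median was -0.26 in 3 genes with several kinds, of which 1 was higher in replicate 3.

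**Figure D5:**
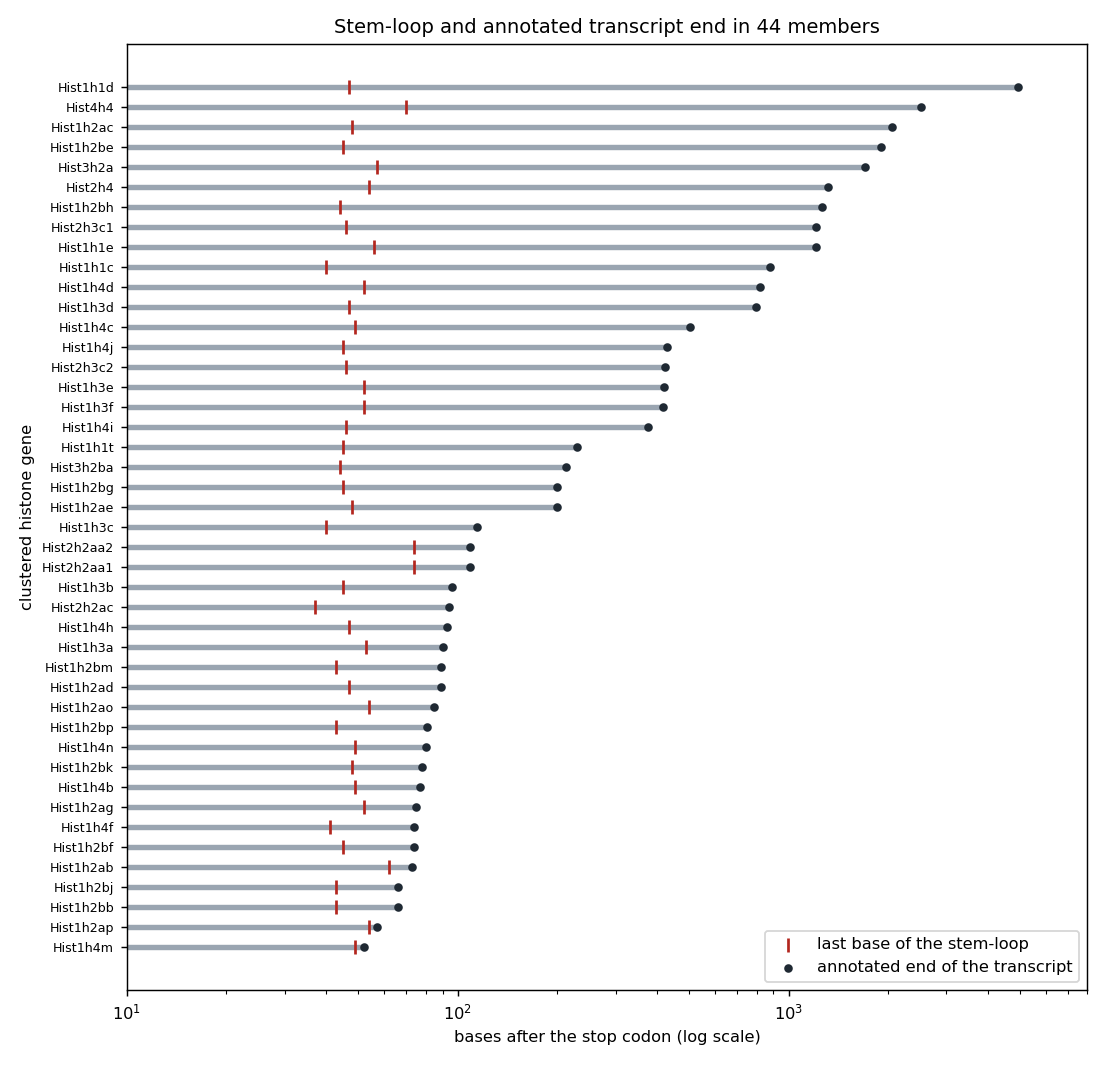
Annotated transcript of each of the 44 members with a stem-loop, drawn from the stop codon on a log scale of bases, with a red mark at the last base of the stem-loop and a black point at the annotated end; for genes with several such transcripts the one of highest mean TPM is drawn. The red marks stay in a narrow band, while the ends range from 3 bases beyond the stem-loop in Hist1h4m to 4884 bases beyond it in Hist1h1d.

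Because the members share sequence, single gene values depend on how reads were assigned. The median member had 38.3% of its 31-base stretches to itself, and 41 of 67 had under 50%. Between the gene table and the second transcript table, mean TPM agreed within a factor of 1.5 in 34 of the 46 members with a mean of 10 or more counts, and 2 differed by 2-fold or more. The largest differences were found in Hist1h2br (2.41 TPM in the gene table, 1.09 in the second table), Hist2h2ab (8.2 and 17.6), Hist1h2ap (9.75 and 5.23), Hist2h2bb (4.76 and 2.59) and Hist2h2aa2 (34.5 and 18.9). The read-assignment SD was 22.7, 23.0 and 13.1 counts for Hist2h2aa2 and 15.5, 11.6 and 8.15 counts for Hist1h2bq, and it was 0 for Hist2h2be in each library. A gene on the opposite strand overlaps 21 members, namely all 18 H2A genes, Hist2h2bb, Hist2h3b and Hist1h4b, and where strand was not used in counting their values include reads of both.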

How the data were processed

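RNA of the chromatin fraction of BMDM was sequenced in 3 libraries of 1 group, so no test between conditions was possible and no p-value is given. The authors deposited a gene table and a first transcript table of estimated counts and TPM, derived from transcriptome alignments, and a second transcript table of estimated counts and TPM derived directly from the reads. Per the deposited readme files, all use build mm10 and GENCODE annotation M21. No source used here names the programs or says whether counting used strand. The deposited gene table also gives an SD of each estimated count from read assignment.

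Gene table values were used throughout unless the second table is named. Estimated counts were rounded and scaled by TMM in edgeR 4.0.16 (R 4.3.3). Rows that name no gene, with 1.16%, 0.459% and 0.351% of counts, were left out of library sizes. Genes with a mean of at least 10 counts entered the ratios, with 0.5 CPM added. The biological coefficient of variation came from edgeR's tagwise dispersion with an intercept only. The common value over all genes was checked on simulated data with known spread, while the values of single genes were not. Tables were read in Python 3.11.15 with pandas 2.3.3, and Poisson intervals came from scipy 1.17.1. Alternatives were DESeq2 1.42.0 size factors and dispersions, library size alone, other filters and priors, the second table, other detection limits, other limits on the bases beyond the stem-loop, and each replicate left out. The stem-loop search was planned on the genome and was run on the annotated M21 transcript sequence instead.

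Genes named in each class are the 4 of highest mean TPM. Also named are the 5 with the largest difference between tables, and for each pair of libraries the 3 with the largest ratio. Further genes were chosen after their values were seen. The members and lists were chosen with earlier results of these data known.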

Additional observations from a re-analysis of the deposited data

Results flagged for a closer look

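Counts were assigned to a gene that the comparisons do not use. Hist3h2bb-ps, annotated as a processed pseudogene and therefore outside the selection rule, had estimated counts of 5, 8 and 5 in replicates 1, 2 and 3, above the 3 counts that a count of 0 allows, and 1.35, 1.95 and 1.21 TPM. No share of unique stretches was computed for Hist3h2bb-ps, so whether these reads came from H2B genes of like sequence was not tested. The other pseudogenes with such symbols, Hist1h2aj and Hist1h2al, had a count of 0 in all 3 libraries.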

How the results depend on the processing

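No paired analysis was possible because there is 1 group. At a limit of 5 TPM 13 members were detected. The summed level was 744 TPM when recomputed with annotated in place of effective lengths, and 1797 TPM over protein coding genes. The median log2 ratio of replicate 2 over 1 was 0.16 with library size alone and 0.18 without a filter. It was -0.028 at a mean of 50 counts, -0.042 in the second table and -0.038 in members with at least 50% unique stretches, which reversed its sign, and the cause was not tested. The ratio of replicate 3 over 1 stayed negative, at -0.48 without a filter, -0.75 with a prior of 0.1 CPM and -0.54 in the second table. That of replicate 3 over 2 was -0.94 with library size alone, -0.75 without a filter, -0.97 with the smaller prior and -0.58 in the second table. Library size alone moved the median of all genes to 0.10, -0.07 and -0.16 in the pairs 2 over 1, 3 over 1 and 3 over 2.

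Members 2-fold or more higher in replicate 2 than 1 numbered 1 at a mean of 50 counts, 8 with the smaller prior and 0 in the second table. Those lower numbered 2 with the smaller prior and 4 in the second table, which also had 1 member higher in replicate 3 than 1. Those lower in replicate 3 than 1 numbered 8 at a mean of 50 counts, where fewer genes pass. Those lower in replicate 3 than 2 numbered 22 with library size alone, 5 at a mean of 50 counts and 22 with the smaller prior. Replicate 3 was lowest in 20 of 23 members at a mean of 50 counts and in 18 of 20 with unique stretches. The coefficient of variation was 0.340 with DESeq2, 0.316 without a filter and 0.332 in the second table. Transcripts that end at the stem-loop held 32.3% of member TPM in the second table, 10.7% with a limit of 20 bases and 46.2% with 100 bases.

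Leaving out each replicate in turn gave 44 to 52 detected members, a summed TPM of 418 to 603, an H3 share of 12.2% to 17.6%, a coefficient of variation of 0.242 to 0.263 and a stem-loop share of 37.4% to 40.0%. Depth limits members with few counts, and 5 undetected members had at most 3 counts in each library.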
